A study of Mus musculus with 14 samples.

Results

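Ribosome biogenesis genes were followed in skeletal muscle of mice with endothelial overexpression of c-Myc. The 40 genes form a module named for Myc targets and were chosen by symbol, and all 40 were found among the 54532 genes counted. Of these, 39 had enough counts to be tested, beside 15458 genes in all. Wdr74, a factor of the large subunit, was listed at 0 counts in each of the 14 libraries.

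Ribosomes are built in the nucleolus, where RNA polymerase I (Pol I) copies the ribosomal DNA into a long precursor RNA. Small nucleolar ribonucleoproteins (snoRNPs) modify that precursor, and assembly factors cut and fold it into the small (40S) and large (60S) subunits. c-Myc, as a dimer with Max, binds the E-box sequence CACGTG and is known for raising transcription of these genes in dividing cells, and in muscle fibres ribosome production is tied to growth of the fibre.

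The mice were males of the FVB/N strain in 4 groups, and RNA from soleus and gastrocnemius muscle was selected with poly-T beads before sequencing. EC-Myc OE mice carried a Tet-O-Myc transgene, which holds human c-Myc and lies on the Y chromosome, together with a tetracycline transactivator driven by the endothelial Cdh5 promoter. CT littermates carried Tet-O-Myc without the transactivator. All mice were kept on doxycycline feed, which holds the transgene off, and it was withdrawn at 4 to 6 weeks of age. Control diet (CTD, TD.08485) or western diet (WD, TD.88137) was given for 20 weeks by the labels. The results text of the study gives a shorter time on diet for the transcriptome, and a figure legend gives group sizes by diet that differ from the labels, which were kept. The groups were CT-CTD with 3 libraries, CT-WD with 3, OE-CTD with 4 and OE-WD with 4. A number after a group's name is the replicate, and the labels do not say which muscle a library came from. Total counts per library were between 21833839 and 28519159. Reads from the human transgene were not analysed here. Mouse Myc, as normalised counts scaled to a common library total (CPM), was measured at 4.59, 6.11 and 4.45 CPM in CT-CTD, 8.71, 4.93 and 13.3 in CT-WD, 6.63, 5.87, 6.84 and 3.06 in OE-CTD, with 9.03, 5.61, 5.74 and 5.22 in OE-WD. The 4 groups overlapped for mouse Myc, and the log2 fold change averaged over both diets was -0.17 with an adjusted p of 0.696 in edgeR. Max, the partner of Myc, had -0.28 with an adjusted p of 0.0728 in edgeR, also uncalled. The sources used here do not say that each library is from a separate mouse, so a p measures the spread between these libraries, which may be technical. In the authors' names for the libraries, OE-CTD 1, 2 and 3 share a number, all 4 OE-WD libraries share another, and each CT library and OE-CTD 4 has its own. Replicates 1 to 3 of each EC-Myc OE group differed less from each other than the replicates of each CT group did. What the numbers stand for is not given, so whether the 8 EC-Myc OE libraries come from separate mice, litters or cages is not known and cannot be told apart from genotype. No number is shared between OE-CTD and OE-WD. The numbers therefore cannot be told apart from diet within EC-Myc OE either, which also bears on the interaction of diet and genotype.

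OE-CTD 4 and OE-WD 4 stood apart from the other libraries. Counts from mitochondrial genes made up 14.9% of OE-CTD 4 and 14.5% of OE-WD 4, and between 9.66% and 12.8% of the others. The summed level of 12 skeletal muscle fibre markers, in CPM, was 177549, 185322 and 170434 in CT-CTD, 168448, 200509.5 and 181279 in CT-WD, 160919, 155049.6, 160850.4 and 214221 in OE-CTD, with 172509, 167469.5, 159615 and 219752 in OE-WD. OE-CTD 4 and OE-WD 4 had the highest fibre sums of all 14, the most abundant of these markers was Myh4, and no fibre marker was at 0. Of the 39 members, 8 lay above and 9 below the other libraries of their group in both OE-CTD 4 and OE-WD 4, and the same was found for 18.6% and 19.7% of all genes tested. The members above included Rrp12, Polr1a, Bop1 and Polr1b, and those below included Dkc1, Utp18, Ncl and Npm1. Values without both libraries, an alternative chosen after the data were seen, are given below for called members and for several anchors in the genotype comparisons only.

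**Figure D1:**
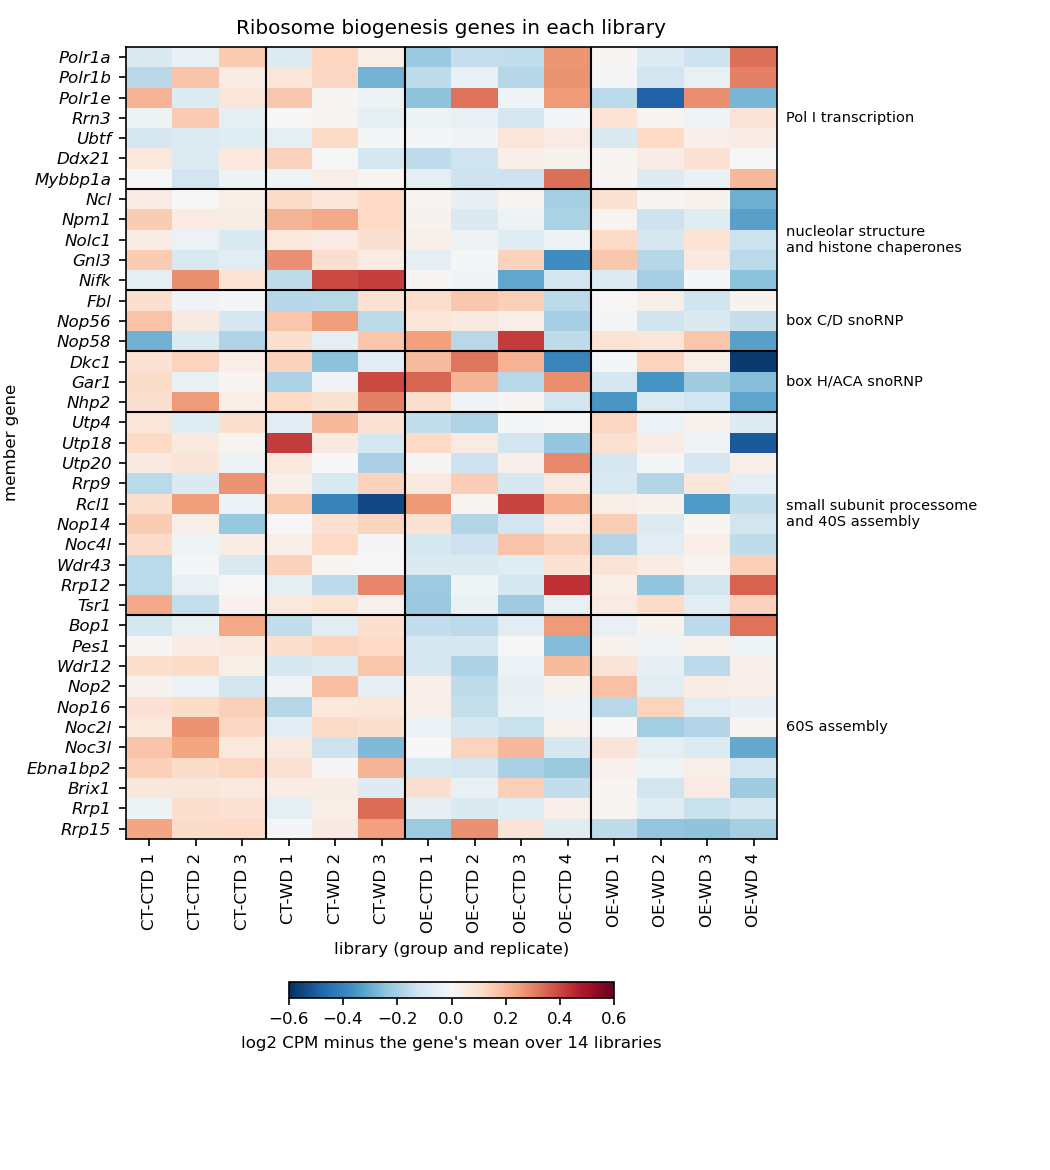
Each row is a member gene and each column a library, and colour gives log2 CPM minus the gene's mean over all 14 libraries, with roles separated by lines. In OE-CTD 4 and OE-WD 4 Rrp12, Polr1a and Bop1 are above their means and Dkc1 and Utp18 below, with the lowest value of OE-WD 4 at -0.57.

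Levels of the members were compared with each other in FPKM, which corrects for gene length. The length is 1 value per gene and was not checked against the transcripts expressed, so the order below depends on it. Ncl, with a length of 10188 bases against 2665 for Npm1, was at 17.7 FPKM. In CPM it was above Npm1, with means of 172 and 80.6 in CT. Mean FPKM over the libraries was between 0.943 and 30.3 for the 39 members tested, with a median of 7.46. Npm1, nucleophosmin, a histone chaperone and scaffold of the nucleolus, had the highest level at 30.3 ± 3.05 FPKM (SD, n = 14). Rrp1, a large subunit factor, followed at 21.6 ± 1.97 FPKM, and Mybbp1a, a nucleolar protein of Pol I chromatin, at 20.2 ± 2.02 FPKM (both SD, n = 14). Rrp1 and Mybbp1a did not differ beyond their spread. The lowest level among tested members was that of Polr1e, a Pol I subunit, at 0.943 ± 0.152 FPKM (SD, n = 14), and Nop58, a core protein of box C/D snoRNPs, was at 1.37 ± 0.203 FPKM. In CPM, the coefficient of variation of single members between libraries was between 4.71% and 18.1%, with a median of 9.24%. For Wdr74, 3 counts, taken as the floor, correspond to between 0.099 and 0.153 CPM, a limit that covers counting error only. Gm45736, a protein-coding gene on the same strand, overlaps Wdr74, and its part in the 0 counts was not tested.

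Roles of the members were kept apart in what follows, and CPM was used to compare a gene between libraries. Called genes are those with an adjusted p under 0.05 in edgeR's quasi-likelihood test, with Benjamini-Hochberg adjustment over all genes tested. In bulk muscle, fewer cells of a type and less RNA per cell cannot be told apart. Ncl, Npm1, Fbl, Nop56, Polr1b and Bop1, here called the anchors, are given in every comparison. The comparisons share groups of libraries with one another, so their values are not independent.

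The comparison of EC-Myc OE with CT, averaged over both diets, asked whether endothelial c-Myc moves these genes in whole muscle. It called 3 of 39 members, all of them lower in EC-Myc OE, where 8.49% of all genes tested were called in either direction and 3.45% were called lower. These were Npm1, Ebna1bp2, a 60S assembly factor, and Nhp2, a core protein of the box H/ACA snoRNPs that guide pseudouridylation. No member was called higher, where 5.04% of all genes were. At an unadjusted p under 0.05, 8 members were lower and 0 higher, where 10.8% and 13.1% of all genes were and 23.9% in either direction. The share of members called was 7.69%, near the share over all genes. The median log2 fold change of the members was -0.0586, beside -0.00123 over all genes. Of the 39 members 28 were below 0, where 50.3% of all genes were. Every member had a 95% interval below a 1.5-fold rise.

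Npm1 (ENSMUSG00000057113, chr11:33152287-33163206) was measured at 81.7, 75.98 and 75.7 CPM in CT-CTD, 84.7, 86.01 and 79.8 in CT-WD, 74.7, 69.2, 71.9 and 64.4 in OE-CTD, with 74.4, 67.5, 69.8 and 58.7 in OE-WD. All 8 EC-Myc OE libraries lay below all 6 CT libraries, which was the case for 1 of 39 members and 0.77% of all genes tested, and no member had all of them above, where 1.06% of all genes did. The mean was 80.6 ± 4.31 CPM in CT (SD, n = 6) and 68.8 ± 5.34 CPM in EC-Myc OE (SD, n = 8), and the log2 fold change was -0.23 (SE 0.0596, 95% interval -0.35 to -0.10) with an adjusted p of 0.0282 in edgeR. Without OE-CTD 4 and OE-WD 4 it was -0.18, with an adjusted p of 0.0341 in edgeR and a range of 0.00581 to 0.0949 over all alternatives.

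Ebna1bp2 (ENSMUSG00000028729, chr4:118620799-118627776) was measured at 33.2, 32.5 and 32.9 CPM in CT-CTD, 32.1, 30.2 and 34.7 in CT-WD, 28.2, 28.04, 26.3 and 25.7 in OE-CTD, with 30.7, 29.6, 30.8 and 27.8 in OE-WD. On control diet all EC-Myc OE libraries lay below all CT libraries, and on WD OE-WD 1 and OE-WD 3 lay above CT-WD 2. The averaged log2 fold change was -0.20 (SE 0.0532, 95% interval -0.31 to -0.09) with an adjusted p of 0.0295 in edgeR. Without OE-CTD 4 and OE-WD 4 it was -0.18, with an adjusted p of 0.0443 in edgeR and a range of 0.00907 to 0.123 over all alternatives.

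Nhp2 (ENSMUSG00000001056, chr11:51619735-51623714) was measured at 17.2, 19.3 and 16.6 CPM in CT-CTD, 17.6, 17.2 and 19.96 in CT-WD, 17.3, 15.8, 16.3 and 14.9 in OE-CTD, with 12.6, 15.3, 14.9 and 12.9 in OE-WD. On WD the groups did not overlap and OE-WD 1 and OE-WD 4 were lowest, while on control diet OE-CTD 1 lay among the CT libraries. The averaged log2 fold change was -0.26 (SE 0.0719, 95% interval -0.42 to -0.11) with an adjusted p of 0.0341 in edgeR. Without OE-CTD 4 and OE-WD 4 it was -0.23 and was no longer called, with an adjusted p of 0.0611 in edgeR and a range of 0.0121 to 0.136 over all alternatives. Nhp2 overlaps Rmnd5b on the opposite strand, and whether the counting used strand is not given in the sources used here, so their reads cannot be told apart.

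The 6 CT libraries enter this test as independent, although those with the same replicate number deviated together. The replicate block of this comparison tied same-numbered CT and EC-Myc OE libraries within each diet, so it does not address that. With it no member was called, where 2.35% of all genes were. The number of members called also depended on single libraries. It was 0 without CT-CTD 2 or without CT-CTD 3, where 5.13% and 4.49% of all genes were called. It was 1 without CT-WD 2, CT-WD 3, OE-CTD 2, OE-CTD 3 or OE-WD 2, where between 4.45% and 5.9% of all genes were. It was 2 without CT-CTD 1, OE-WD 1 or OE-WD 4, where 7.95%, 8.35% and 7.5% of all genes were, and 5 without CT-WD 1, where 15.7% were. Without both OE-CTD 4 and OE-WD 4 it was 3, made up of Npm1, Ebna1bp2 and Noc2l, where 10.8% of all genes were called. With no filter on low counts 1 was called, Npm1, where 5.74% of all genes were.

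**Figure D2:**
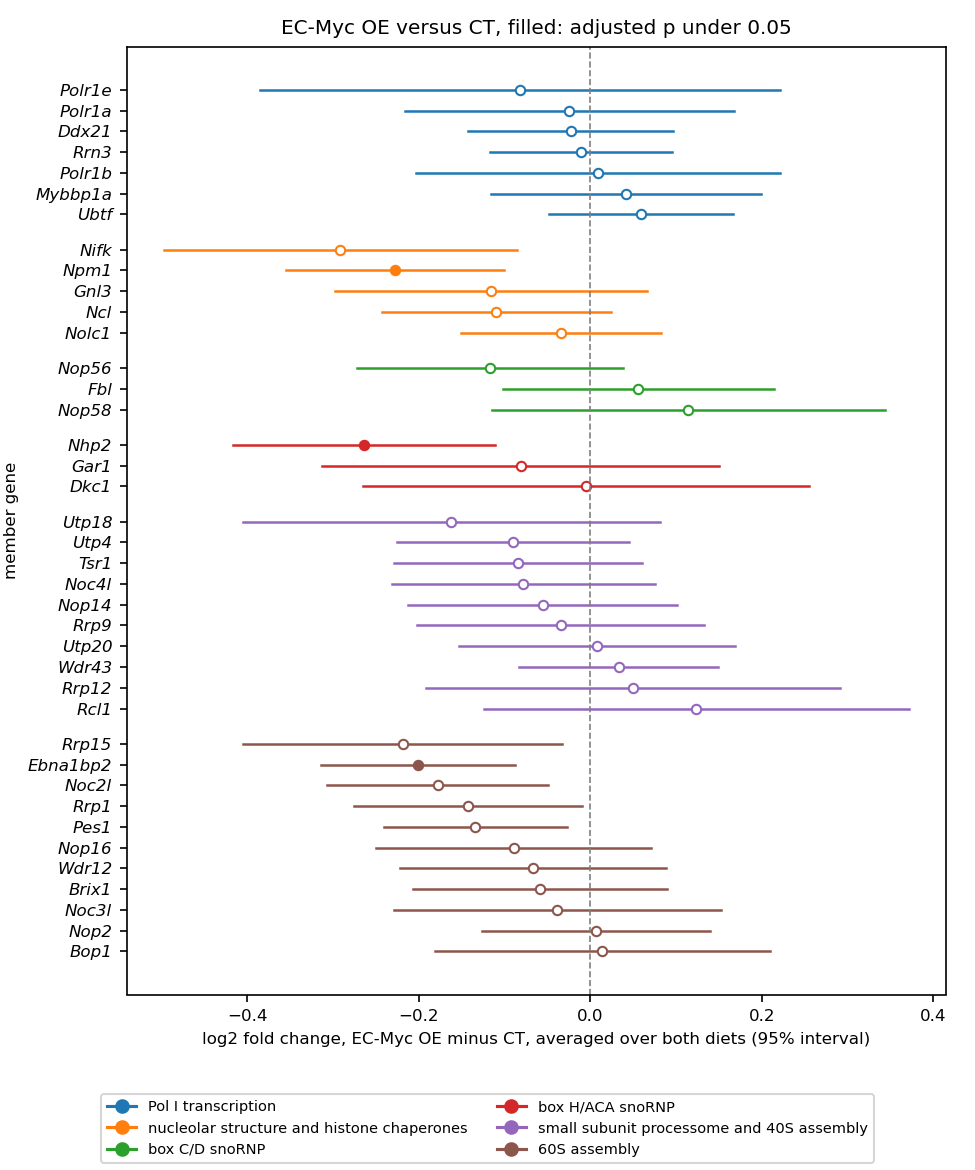
Points give the log2 fold change of each member between EC-Myc OE and CT averaged over both diets, lines the 95% interval, and colours the role. The filled points, Npm1, Ebna1bp2 and Nhp2, are the members with an adjusted p under 0.05 in edgeR, and 28 of 39 points lie below 0.

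By role, the 7 members of Pol I transcription were centred near 0 in the averaged comparison, with 4 below 0, a median of -0.0109 and a range of -0.08 to 0.06. None of the 7 reached an unadjusted p under 0.05. Polr1b, a large catalytic subunit of Pol I, was measured at 15.9, 20.2 and 18.5 CPM in CT-CTD, 18.8, 19.5 and 14.7 in CT-WD, 16.1, 17.4, 15.9 and 21.6 in OE-CTD, with 17.7, 16.5, 17.3 and 22.1 in OE-WD. Its highest libraries were OE-WD 4 and OE-CTD 4 and its lowest CT-WD 3, and the groups overlapped. The log2 fold change was 0.01 (SE 0.0998, 95% interval -0.20 to 0.22), and without OE-CTD 4 and OE-WD 4 it was -0.10 with an adjusted p of 0.499 in edgeR. Polr1e was measured at 3.84, 3.14 and 3.49 CPM in CT-CTD, 3.72, 3.33 and 3.25 in CT-WD, 2.80, 4.19, 3.26 and 3.98 in OE-CTD, with 2.96, 2.35, 4.04 and 2.73 in OE-WD. Its libraries of all 4 groups overlapped, and its counts, between 67 and 127 per library, were the smallest of the tested members. Rrn3, which recruits Pol I to the promoter, and Ubtf, which binds ribosomal DNA, had log2 fold changes of -0.01 and 0.06.

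All 5 members of nucleolar structure were below 0 in the averaged comparison, with a median of -0.116, and Npm1 was called. Ncl, nucleolin, which binds the precursor RNA, was measured at 171, 165 and 169 CPM in CT-CTD, 178, 173 and 179 in CT-WD, 167, 159, 166 and 143 in OE-CTD, with 175, 166, 167 and 134 in OE-WD. The lowest values were those of OE-WD 4 and OE-CTD 4, the other EC-Myc OE libraries lay among or close to the CT libraries, and the groups overlapped. The log2 fold change was -0.11 (SE 0.0628, 95% interval -0.24 to 0.02) with an adjusted p of 0.308 in edgeR, and -0.05 without OE-CTD 4 and OE-WD 4. Nifk, which interacts with the proliferation protein Ki-67, was measured at 16.2, 20.4 and 17.8 CPM in CT-CTD, 15.1, 22.1 and 22.4 in CT-WD, 16.9, 16.6, 13.5 and 15.6 in OE-CTD, with 15.95, 14.6, 16.7 and 14.2 in OE-WD. CT-WD 2 and CT-WD 3 were highest, CT-CTD 1 and CT-WD 1 lay among the EC-Myc OE libraries, and the averaged log2 fold change of -0.29 (SE 0.0966, 95% interval -0.50 to -0.09) had an adjusted p of 0.0756 in edgeR. DESeq2 called Nifk. Without CT-WD 1 edgeR called it too, with an adjusted p of 0.00609 in edgeR and a range of 0.00609 to 0.193 over all alternatives. Gnl3, the GTPase nucleostemin, and Nolc1, a chaperone of snoRNPs, had log2 fold changes of -0.12 and -0.03, neither called.

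The box C/D snoRNPs, which guide methylation of ribosomal RNA, had 1 of 3 members below 0 and none called. Fbl, fibrillarin, the methyltransferase of these particles, was measured at 14.99, 13.8 and 13.9 CPM in CT-CTD, 12.4, 12.5 and 14.9 in CT-WD, 15.1, 15.7, 15.5 and 12.6 in OE-CTD, with 14.01, 14.4, 12.9 and 14.2 in OE-WD. Levels were between 12.4 and 15.7 CPM with no separation of the groups, and the averaged log2 fold change was 0.06 (SE 0.0742, 95% interval -0.10 to 0.21). Nop56, a core protein, was measured at 36.7, 33.8 and 30.4 CPM in CT-CTD, 36.6, 38.8 and 29.2 in CT-WD, 34.3, 33.8, 33.5 and 28.4 in OE-CTD, with 32.3, 29.9, 30.7 and 29.6 in OE-WD. CT-WD spread widely, with CT-WD 2 highest and CT-WD 3 among the lowest, and the averaged log2 fold change was -0.12 (SE 0.0730, 95% interval -0.27 to 0.04). Nop56 overlaps Idh3b on the opposite strand, which had a mean of 460.4 CPM against 32.7 for Nop56, so its value is uncertain. Nop58 was measured at 10.9, 12.6 and 11.8 CPM in CT-CTD, 14.3, 12.9 and 14.98 in CT-WD, 15.8, 11.9, 17.9 and 11.99 in OE-CTD, with 14.1, 14.03, 14.97 and 10.6 in OE-WD. OE-CTD 3 was highest and OE-WD 4 lowest, and the groups overlapped in the averaged comparison.

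All 3 box H/ACA members were below 0 in the averaged comparison, with a median of -0.0812, and Nhp2 was called. Dkc1, dyskerin, the pseudouridine synthase, had an averaged log2 fold change of -0.00497, with an adjusted p of 0.984 in edgeR, and its lowest libraries were OE-CTD 4 and OE-WD 4. Gar1 was measured at 8.27, 7.45 and 7.70 CPM in CT-CTD, 6.69, 7.54 and 10.1 in CT-WD, 9.78, 8.81, 6.80 and 9.29 in OE-CTD, with 7.12, 5.96, 6.59 and 6.39 in OE-WD. CT-WD 3 was highest and OE-WD 2 lowest, and the averaged log2 fold change was -0.08 (SE 0.109, 95% interval -0.31 to 0.15).

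The small subunit processome and 40S assembly factors had 6 of 10 members below 0, a median of -0.0448 and none at an unadjusted p under 0.05. The values lay between -0.16 for Utp18, a processome subunit, and 0.12 for Rcl1, which acts in early cleavage of the precursor. Rrp12, which takes part in export of both subunits, had its highest levels in OE-CTD 4 at 96.4 CPM and OE-WD 4 at 91.1 CPM, followed by CT-WD 3 at 87.2 CPM, and ranged from 60.3 to 72.9 CPM in the remaining libraries.

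Among the 60S assembly factors 9 of 11 tested members were below 0, where 50.3% of all genes were, with a median of -0.0894. Of these factors 5 were lower at an unadjusted p under 0.05, where 10.8% of all genes were. Apart from Ebna1bp2 these were Noc2l, Pes1, Rrp15 and Rrp1, all lower in EC-Myc OE and none called. Noc2l, which forms complexes that carry the large subunit precursor, was measured at 37.6, 43.3 and 39.2 CPM in CT-CTD, 34.4, 38.99 and 38.5 in CT-WD, 35.1, 33.5, 32.7 and 36.6 in OE-CTD, with 35.99, 31.1, 31.8 and 36.4 in OE-WD. On control diet the groups did not overlap and on WD they did, and the averaged log2 fold change was -0.18 (SE 0.0606, 95% interval -0.31 to -0.05) with an adjusted p of 0.0835 in edgeR. Without CT-WD 1, and without both OE-CTD 4 and OE-WD 4, Noc2l was called. Pes1, which with Bop1 and Wdr12 forms the PeBoW complex of 60S maturation, was measured at 34.8, 35.7 and 35.9 CPM in CT-CTD, 37.1, 37.9 and 37.6 in CT-WD, 32.2, 32.1, 34.5 and 28.8 in OE-CTD, with 35.1, 34.1, 35.2 and 33.99 in OE-WD. Within each diet all EC-Myc OE libraries lay below the CT libraries, and OE-CTD 4 was lowest. Its averaged log2 fold change was -0.13 (SE 0.0502, 95% interval -0.24 to -0.03) with an adjusted p of 0.114 in edgeR. Bop1 was measured at 31.2, 32.7 and 39.4 CPM in CT-CTD, 30.3, 32.04 and 36.01 in CT-WD, 30.3, 30.1, 32.1 and 40.1 in OE-CTD, with 32.6, 34.1, 30.1 and 42.1 in OE-WD. OE-WD 4, OE-CTD 4 and CT-CTD 3 were highest and the groups overlapped. The log2 fold change of Bop1 was 0.01 (SE 0.0917, 95% interval -0.18 to 0.21), and -0.09 without OE-CTD 4 and OE-WD 4, with an adjusted p of 0.423 in edgeR. Bop1 overlaps Mroh1 and Scx on the opposite strand, with means of 33.8 and 8.85 CPM.

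**Figure D3:**
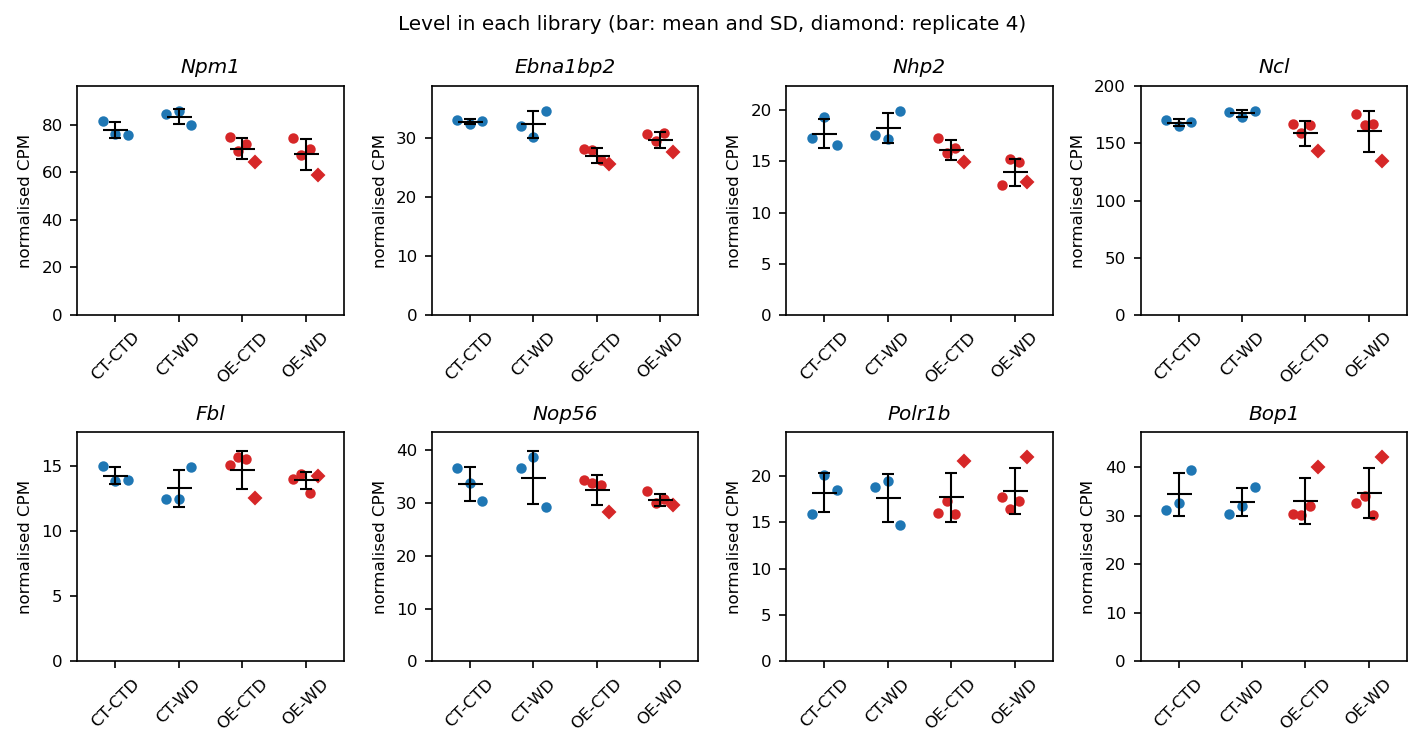
Each panel gives the normalised CPM of a gene in every library by group, with the mean and SD as bars and replicate 4 of the EC-Myc OE groups as diamonds, on an axis from 0. Npm1 in the 8 EC-Myc OE libraries lies between 58.7 and 74.7 CPM, below the 75.7 to 86.0 CPM of CT, and the diamonds are at the top for Polr1b and Bop1.

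On western diet alone, OE-WD was compared with CT-WD. No member was called in edgeR, where 0.725% of all genes were, 0.395% lower and 0.33% higher. At an unadjusted p under 0.05 there were 5 members, all lower, where 8.42% of all genes were lower and 8.44% higher, 16.9% in all. DESeq2 called 2 members, Npm1 and Nhp2, where it called 3.73% of all genes, and limma called 0, where it called 0.311%. The median log2 fold change was -0.0642, beside 0.00556 over all genes, and 26 of 39 members were below 0, where 49.1% of all genes were. Of the 7 members of Pol I transcription 6 were above 0, a count that rests in part on OE-WD 4. Polr1a was at 66.0 CPM there and at 52.6, 49.5 and 48.1 in the other OE-WD libraries, with 49.6, 57.3 and 53.9 in CT-WD. Mybbp1a was at 122.2 CPM there and at 107.5, 101.2 and 104.0 in the others, with 104.7, 109.8 and 107.5 in CT-WD. In 4 members, Nhp2, Npm1, Rrp15 and Pes1, all OE-WD libraries lay below all CT-WD libraries, as for 5.54% of all genes, and in none above, where 6.06% of all genes did so. Nhp2 had a log2 fold change of -0.39 (SE 0.102, 95% interval -0.60 to -0.17) with an adjusted p of 0.0846 in edgeR, ranging from 0.0219 to 0.344 over all alternatives. Npm1 had -0.30 (SE 0.0842, 95% interval -0.48 to -0.12) with an adjusted p of 0.101 in edgeR, ranging from 0.0258 to 0.302 over all alternatives. Without CT-WD 1 the count of members called was 2, Nhp2 and Nifk, where 9.47% of all genes were called. Without OE-CTD 4 and OE-WD 4 it was 0, where 0.0326% of all genes were. Rrp15, an assembly factor of the large subunit, was measured at 9.81, 8.996 and 9.05 CPM in CT-CTD, 8.28, 8.65 and 9.87 in CT-WD, 7.17, 10.1, 8.78 and 7.91 in OE-CTD, with 7.47, 7.08, 7.02 and 7.23 in OE-WD. The 4 OE-WD libraries were among the lowest, CT-WD 3 and OE-CTD 2 among the highest, and the log2 fold change on WD was -0.31 (SE 0.124, 95% interval -0.57 to -0.05) with an adjusted p of 0.227 in edgeR. Nifk had -0.37 (SE 0.136, 95% interval -0.66 to -0.08) with an adjusted p of 0.187 in edgeR. The other anchors, Ncl, Fbl, Nop56, Polr1b and Bop1, had log2 fold changes of -0.14, 0.06, -0.19, 0.06 and 0.08 on WD, none called. Without OE-CTD 4 and OE-WD 4, Polr1b and Bop1 turned sign, at -0.04 and -0.03, and Ncl, Npm1 and Nhp2 were at -0.06, -0.25 and -0.36.

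On control diet alone, no member was called in edgeR between OE-CTD and CT-CTD, where 2.67% of all genes were, 1.11% lower and 1.57% higher. Here 3 members, Ebna1bp2, Noc2l and Pes1, all 60S factors, reached an unadjusted p under 0.05, all lower, where 6.7% of all genes were lower and 9.22% higher, 15.9% in all. DESeq2 called 1 member, Ebna1bp2, where it called 5.27% of all genes, and limma called 0, where it called 1.49%. The median was -0.0557, beside -0.000702 over all genes, and all 11 tested 60S factors were below 0, the nearest to it at -0.000151, as were 50.1% of all genes and 8 of these 11 on WD. In 5 members all OE-CTD libraries lay below all CT-CTD libraries, as for 6.75% of all genes, and in 1, Ubtf, above, as for 8.73%. Ebna1bp2 had a log2 fold change of -0.28 (SE 0.0751, 95% interval -0.44 to -0.12) with an adjusted p of 0.0644 in edgeR, ranging from 0.0214 to 0.202 over all alternatives. Noc2l had -0.22 (SE 0.0856, 95% interval -0.40 to -0.03) and Pes1 -0.15 (SE 0.0710, 95% interval -0.30 to -0.000610), with adjusted p of 0.224 and 0.312 in edgeR. Nop58 had 0.29 (SE 0.153, 95% interval -0.03 to 0.62), above 0, with an adjusted p of 0.382 in edgeR, and 0.17 without OE-CTD 3. The anchors Npm1, Ncl, Fbl, Nop56, Polr1b and Bop1 had log2 fold changes of -0.15, -0.08, 0.05, -0.05, -0.04 and -0.06 on control diet. Without OE-CTD 4 and OE-WD 4, Nop56 turned sign, at 0.01, and Npm1, Ncl, Fbl, Polr1b, Bop1 and Ebna1bp2 were at -0.11, -0.04, 0.11, -0.15, -0.16 and -0.26, with no member called, where 3.61% of all genes were. Polr1b turned sign without CT-CTD 2, at 0.04, and Bop1 without CT-CTD 3, at 0.05. Leaving out single libraries gave 0 members and between 0.485% (without CT-CTD 3) and 3.89% (without CT-WD 1) of all genes called. The replicate block gave 0 members and 0.0906% of all genes.

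Western diet was then compared with control diet within CT. No gene at all was called by edgeR, 0% of those tested, and no member reached an unadjusted p under 0.05, where 7.28% of all genes did so, 3.09% lower and 4.19% higher. DESeq2 called 35 genes and limma 0, with no member among them. Same-numbered CT libraries were taken as pairs, and with the replicate number as a block edgeR called 13 genes, 0.0841%, and 0 members. It called 42 genes without CT-WD 1 and 93 with no filter on low counts, again with 0 members. The median log2 fold change was 0.0185, beside 0.0071 over all genes, and 37 of 39 members had an interval within 1.5-fold in both directions. CT-WD lay above CT-CTD without overlap for 6 members and below it for 3, where 4.47% and 5.16% of all genes did so. Noc3l, a partner of large subunit precursors, was measured at 9.06, 9.46 and 8.38 CPM in CT-CTD, 8.35, 7.34 and 6.67 in CT-WD, 8.01, 8.81, 9.19 and 7.50 in OE-CTD, with 8.48, 7.72, 7.57 and 6.47 in OE-WD. CT-WD lay below CT-CTD with CT-WD 1 next to CT-CTD 3, and the log2 fold change was -0.26 (SE 0.136, 95% interval -0.55 to 0.02) with an adjusted p of 0.743 in edgeR. Rcl1 was measured at 9.29, 10.4 and 8.50 CPM in CT-CTD, 9.73, 6.57 and 5.96 in CT-WD, 10.4, 8.81, 11.5 and 10.1 in OE-CTD, with 8.95, 8.84, 6.85 and 7.83 in OE-WD. CT-WD 2 and CT-WD 3 were the lowest of all libraries and CT-WD 1 lay within CT-CTD, with a log2 fold change of -0.33 (SE 0.176, 95% interval -0.71 to 0.04). It was -0.58 without CT-WD 1 and -0.20 without CT-WD 3, and uncalled in either case. Wdr43, a processome subunit, was measured at 27.1, 30.1 and 28.5 CPM in CT-CTD, 33.3, 30.5 and 30.2 in CT-WD, 28.5, 28.5, 28.8 and 32.2 in OE-CTD, with 31.9, 31.2, 30.6 and 33.5 in OE-WD. All CT-WD libraries lay just above CT-CTD, with a log2 fold change of 0.14 (SE 0.0825, 95% interval -0.04 to 0.31), and Nop58 had 0.26 (SE 0.163, 95% interval -0.09 to 0.60) in the same comparison. The anchors Npm1, Ncl, Fbl, Nop56, Polr1b and Bop1 had 0.10, 0.07, -0.10, 0.05, -0.04 and -0.07. Single libraries turned the sign of Nop56 (-0.03 without CT-WD 2), Polr1b (0.07 without CT-WD 3) and Bop1 (0.04 without CT-CTD 3). Fbl was at -0.19 without CT-WD 3.

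Within EC-Myc OE, western diet again called no member, where 0.00647% of all genes were called in edgeR. The numbers in the library names run with diet here, so the libraries may not be independent. At an unadjusted p under 0.05 there were 3 members lower on WD, Gar1, Rcl1 and Nhp2, and 1 higher, Tsr1, where 2.27% and 1.93% of all genes did so, 4.2% in all. The groups overlapped in every member, where 2.23% of all genes lay lower and 1.84% higher without overlap. DESeq2 and limma called 0 members. The median was -0.0146, beside 0.00484 over all genes. The 3 box H/ACA members were all below 0, with a median of -0.206. Gar1 had a log2 fold change of -0.41 (SE 0.143, 95% interval -0.72 to -0.11) with an adjusted p of 1 in edgeR, and Rcl1 -0.33 (SE 0.151, 95% interval -0.65 to -0.01), while in both the groups overlapped. Nhp2 had -0.21 (SE 0.0949, 95% interval -0.41 to -0.00467). Tsr1, which acts late in 40S assembly, was measured at 25.7, 19.8 and 22.3 CPM in CT-CTD, 22.9, 23.2 and 22.3 in CT-WD, 18.8, 21.3, 18.9 and 21.2 in OE-CTD, with 22.6, 23.8, 20.97 and 24.1 in OE-WD. OE-WD 2 and OE-WD 4 were high and OE-CTD 1 and OE-CTD 3 low, the groups overlapped, and the log2 fold change was 0.19 (SE 0.0893, 95% interval 0.000364 to 0.38). The anchors Npm1, Ncl, Fbl, Nop56, Polr1b and Bop1 had -0.05, 0.02, -0.08, -0.09, 0.06 and 0.07. Npm1, Polr1b and Bop1 changed sign without OE-WD 4, at 0.01, -0.04 and -0.04. Ncl changed sign without OE-CTD 4, at -0.03, and Fbl and Nop56 were then at -0.15 and -0.14.

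The difference in diet response between genotypes was tested as an interaction. No gene was called in edgeR, 0% of those tested, and 1 member, Gar1, reached an unadjusted p under 0.05, where 5.92% of all genes did so, 3.34% lower and 2.57% higher. DESeq2 and limma called 0 members. Gar1 had an interaction of -0.46 (SE 0.218, 95% interval -0.93 to -0.000875) in log2 units, and its adjusted p was 0.843 in edgeR; without CT-WD 3 the interaction was -0.28. Nhp2, Nop58 and Ebna1bp2 followed with -0.25, -0.36 and 0.16, and Nop58 had -0.23 without OE-CTD 3. The median of the members was -0.0464, beside -0.00567 over all genes. The anchors Npm1, Ncl, Fbl, Nop56, Polr1b and Bop1 had -0.15, -0.05, 0.02, -0.14, 0.10 and 0.14. Npm1 was at -0.09 without OE-WD 4, and Ncl, Fbl and Polr1b each changed sign when a single library was left out. Bop1 was at 0.03 without CT-CTD 3, and Nop56 at -0.06 without CT-WD 2 and -0.25 without CT-WD 3.

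The other genes of the pathway were read from lists of Pol I machinery, small subunit factors and large subunit factors, 113 in all and each of them tested. In the averaged genotype comparison 2 of 113 were called, both lower, where 3.45% of all genes were called lower, and 79 (69.9%) were below 0, as were 50.3% of all genes, with a median of -0.0624. Utp11, a processome subunit, was measured at 31.4, 29.4 and 33.99 CPM in CT-CTD, 33.1, 42.7 and 40.4 in CT-WD, 29.5, 24.6, 27.7 and 21.9 in OE-CTD, with 33.1, 25.2, 29.3 and 22.8 in OE-WD. CT-WD 2 and CT-WD 3 were highest, OE-CTD 4 and OE-WD 4 lowest, and the log2 fold change was -0.38 with an adjusted p of 0.0201 in edgeR. Polr1d, a subunit shared by Pol I and Pol III, was measured at 41.5, 50.7 and 46.8 CPM in CT-CTD, 38.1, 47.4 and 49.7 in CT-WD, 40.8, 37.6, 38.7 and 38.9 in OE-CTD, with 37.7, 37.9, 37.01 and 36.8 in OE-WD. The EC-Myc OE libraries lay between 36.8 and 40.8 CPM, CT-WD 1 was the only CT library among them, and the log2 fold change was -0.26 with an adjusted p of 0.0239 in edgeR. None of the 113 was called in any other comparison. The genes with the smallest p were Utp11 and Polr1c on WD, Taf1c and Ddx27 on control diet, Utp14a and Diexf for diet in CT, Bms1 and Bud23 for diet in EC-Myc OE, and Taf1c and Bms1 for the interaction. The protein components of the ribosome itself were added after the data were seen, and 23 of 81 cytosolic ribosomal protein genes tested were called lower and 0 higher in the averaged comparison, with a median of -0.188, where 3.45% of all genes were called lower. On WD 6 were called lower, with a median of -0.306, where 0.395% of all genes were, and on control diet 0 by edgeR, with a median of -0.088. At an unadjusted p under 0.05, 64 were lower on WD and 5 on control diet, where 8.42% and 6.7% of all genes were. The interaction called 0, with 22 lower and 0 higher at an unadjusted p under 0.05, where 3.34% of all genes were lower, and a median of -0.231. With western diet 73 of 81 were above 0 in CT, with a median of 0.108, and 9.88% below 0, where 48.5% of all genes were. In EC-Myc OE 75 of 81 were below 0, with a median of -0.129, where 48.6% of all genes were below 0. None was called in either. These genes were not followed through the alternatives here. Over all genes, calls on WD fell from 112 to 4 without OE-WD 2 and rose to 1499 without CT-WD 1.

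Markers of several cell types were called beside these genes. Of 14 endothelial markers, 6 were called higher in EC-Myc OE in the averaged comparison and 0 lower, where 5.04% and 3.45% of all genes were. Their summed CPM was 572, 568 and 613 in CT-CTD, 684, 630.2 and 719 in CT-WD, 696, 711, 684 and 643 in OE-CTD, with 737, 733, 753 and 744 in OE-WD. The sums of CT-WD 1 and CT-WD 3 lay among those of EC-Myc OE, Eng was the most abundant of the list, and no marker was at 0. Cdh5, whose promoter drives the transactivator, was among those called, with a log2 fold change of 0.36 and an adjusted p of 0.00390 in edgeR. Of 7 fibroblast markers, 6 were called higher and 0 lower, and their summed CPM was 591, 515 and 430.0 in CT-CTD, 1408, 455 and 443 in CT-WD, 1271, 1508, 1382 and 854 in OE-CTD, with 985, 2324, 1291 and 1023 in OE-WD. CT-WD 1 was the only CT library among the EC-Myc OE libraries in that sum, Col1a2 was the most abundant gene, and none was at 0. Of 5 satellite cell markers, Chodl was called higher and Myod1 lower, and of 7 adipocyte markers Lep was called higher. Of the adipocyte markers 4 were above 0 and 3 below. Cfd and Fabp4, the most abundant of that list, were lower at an unadjusted p under 0.05, at -0.96 and -0.33, where 10.8% of all genes were lower. None of the 12 fibre, 8 macrophage, 6 Schwann cell, 7 epidermis, 4 proliferation and 4 erythrocyte markers tested was called. Of the 8 macrophage markers 7 were above 0, with a median of 0.537, and 5 were higher at an unadjusted p under 0.05, where 13.1% of all genes were. On control diet 6 were, with a median of 0.869, where 9.22% of all genes were, and on WD 0, with a median of 0.119. The part of these cell types in the member results was not tested.

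Some members hold small nucleolar RNA genes, and some hold an E-box in the promoter. The genes were chosen by symbol, but a module named for Myc targets is not independent of the E-box, which c-Myc binds. Small nucleolar RNA genes lie inside 7 of the 39 tested members, 21 of them in all, where 1.77% of protein-coding genes tested hold any. The hosts were Ncl, Gnl3, Nop56, Nop58, Dkc1, Wdr43 and Tsr1, and Nop56 held the most, 5. The small RNAs themselves lack a poly-A tail and were not analysed here. Other genes above 1 CPM overlap 10 members, so that part of their reads cannot be told apart. Beside Nhp2, Nop56 and Bop1 these are Mybbp1a, Polr1e, Gnl3, Dkc1, Rrp9, Tsr1 and Wdr12. In that order, the overlapping genes were Spns2 with a mean of 77.9 CPM, Fbxo10 with 4.58, Pbrm1 with 34.8, Mpp1 with 16.5, Parp3 with 47.9, Srr with 8.90 and Carf with 4.15.

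RefSeq promoters, from 250 bases before to 50 after the start of transcription on GRCm38.p6, were matched by symbol for 36 of 40 members. Bop1, Fbl, Npm1 and Rrp12 had no entry. The E-box CACGTG, the same on both strands, was held by 9 of 36 members (25%) and by 8.09% of 27025 genes. Among genes with promoter GC content between 55.8% and 65.4%, the middle range of the members, the share was 11.7%. These members were Nop2, Utp4, Utp20, Pes1, Mybbp1a, Tsr1, Utp18, Rrn3 and Wdr43, and 8 of the 10 sites began within 50 bases of the start. In the averaged genotype comparison 5 of these 9 members were below 0, with a median of -0.0109 and none called, and of 26 tested members with an entry and without the E-box 22 were below 0, with a median of -0.0725 and 2 called. On control diet the order of the medians was the other way, -0.0722 with the E-box and -0.0554 without, and on WD they were 0.00526 and -0.0877. The difference was not tested. Of the anchors with an entry, Ncl, Nop56 and Polr1b, none held CACGTG, so 3 others were printed. They were chosen after their values were seen, as those with the smallest p for genotype whose sites lie in the stretch from 150 bases before to 30 after the start. The capitals mark the E-box, and each is written 5′ to 3′ on its own strand on GRCm38.p6.
Pes1, chr11:3963825-3964004, plus strand: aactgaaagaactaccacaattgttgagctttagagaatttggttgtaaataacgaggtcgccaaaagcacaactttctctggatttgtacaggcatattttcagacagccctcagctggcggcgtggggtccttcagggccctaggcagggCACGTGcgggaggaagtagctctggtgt
Utp18, chr11:93885737-93885916, minus strand: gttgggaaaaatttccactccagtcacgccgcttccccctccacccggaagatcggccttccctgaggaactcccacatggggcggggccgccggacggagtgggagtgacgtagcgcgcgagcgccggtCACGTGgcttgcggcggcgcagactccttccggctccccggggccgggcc
Utp4, chr8:106893490-106893669, plus strand: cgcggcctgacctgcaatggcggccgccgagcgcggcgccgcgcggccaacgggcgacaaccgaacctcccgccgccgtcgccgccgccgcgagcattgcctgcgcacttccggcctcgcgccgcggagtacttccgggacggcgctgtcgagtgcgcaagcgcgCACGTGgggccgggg
The E-box lies just after the start in Pes1 and Utp4 and just before it in Utp18. Their log2 fold changes in the averaged comparison were -0.13, -0.16 and -0.09, none called. A match of letters in a promoter is a description and not a measured site of binding.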

How the data were processed

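The authors deposited raw read counts per gene and FPKM values, in which counts are divided by gene length and a library total. From the totals implied by mt-Co1, between 79.9% and 98.0% of the summed counts, the deposited FPKM hold a scaling factor per library. The submitters' processing notes name HISAT2 2.0.5, featureCounts 1.5.0-p3 and mm10, and give no strand setting.

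Libraries were grouped by their labels. The test was that of edgeR 4.0.16 (R 4.3.3) after TMM normalisation, with filterByExpr (minimum count 10), a mean for each of 4 groups, and the quasi-likelihood test. Log2 CPM used a prior count of 2. DESeq2 1.42.0, limma 3.58.1 on log2(FPKM + 1), other scaling, no filter, a replicate block, only the groups compared and leaving out each library were alternatives. The code was tested on simulated data. A first limit for recovery, set without regard to abundance, was missed and was replaced by limits by abundance.

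The members and lists were chosen with earlier results of these data known. Genes given in every library were Ncl, Npm1, Fbl, Nop56, Polr1b and Bop1, the 4 members with the smallest p in each comparison, each called member, and those with the highest and lowest FPKM. Pes1 and others printed for their promoters were chosen afterwards. Replicate pairs differed by more than sampling noise, with a chi-square per degree of freedom between 7.81 and 15.2 among replicates 1 to 3 of OE-CTD and of OE-WD, between 16.8 and 50.8 in the CT groups, and between 37.0 and 43.0 for OE-CTD 4 or OE-WD 4 with the rest of its group. For CT-WD and CT-CTD, libraries with the same number deviated together, with correlations of 0.385, 0.123 and 0.203, which was taken as pairing from the data alone. Libraries with unlike numbers were not correlated for comparison. The deviations are from small group means, so a single replicate number set apart in both groups could raise all of these correlations. Positions are those of the count table, and 37 of 40 members have the same position in GENCODE M21 on GRCm38. Older symbols were used where the table has them.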

Additional observations from a re-analysis of the deposited data

Results flagged for a closer look

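In groups of 4 libraries, the library farthest from the others was compared with the range of its group for each member. Of 78 such sets, 4 held a library whose gap to its nearest neighbour, as a share of the range, passed Dixon's 95% critical value, and about 3.9 would be found by chance alone. In all 4 that library was OE-CTD 4. Mybbp1a was at 134.2 CPM there and between 98.0 and 102.5 CPM in the other OE-CTD libraries, a gap of 0.874 of the range. Polr1a was at 63.0 CPM against 44.9 to 47.7 CPM, a gap of 0.848. Wdr43 was at 32.2 CPM against 28.5 to 28.8 CPM, a gap of 0.918. Nop56 was low, at 28.4 CPM against 33.5 to 34.3 CPM, a gap of 0.860. The same library stood apart in fibre markers and mitochondrial counts, whose part in these values was not tested.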

How the results depend on the processing

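The count of members called moved with the processing in the genotype comparisons. Averaged over both diets it was 3, and it was 1 with no filter on low counts, 0 with the replicate block, and between 0 and 5 when each library was left out, the lower end without CT-CTD 2 or CT-CTD 3 and the upper without CT-WD 1. DESeq2 gave 4, where it called 12% of all genes, and limma and DESeq2's size factors 3 each, where 7.12% and 8.48% were. Without the filter more genes, 27899, were adjusted for. On western diet the count of 0 became 2 with DESeq2 and ranged from 0 to 2 over the libraries left out, and on control diet it became 1 with DESeq2; the cause was not tested. The replicate block left 0 members called in every comparison and moved the genes called in the averaged comparison from 1312 to 364 (2.35%). In the genotype comparisons the block tied same-numbered CT and EC-Myc OE libraries of a diet. These had correlations between -0.23 and 0.05, and were not taken as pairs. In the EC-Myc OE diet groups the correlations were 0.0711, 0.138, 0.142 and 0.338; since replicate 1 was under 0.1 these were not taken as pairs either, although OE-CTD 4 and OE-WD 4 deviated together. The block changed no other call of members. Each median of the members moved by less than the spread between libraries (0.03 on the log2 scale), but the median for diet changed sign in CT without CT-WD 2, and in EC-Myc OE without both OE-CTD 4 and OE-WD 4, and that of the interaction was -0.018 without CT-WD 1. Of 1199 values of single genes under alternatives, 1120 kept their sign and their side of the threshold, 25 lost a call, 7 gained one, and 47 changed sign while uncalled. Most of these values are of genes that were not called, and the 25 lost calls were all of Npm1 (7 of 20 alternatives), Ebna1bp2 (7 of 20) and Nhp2 (11 of 20). With CACGCG counted beside CACGTG, 50% of members held a motif, against 17.2% of all genes and 26.4% of genes with promoter GC in the middle range of the members. Limits on precision came from 3 or 4 libraries a group and a biological coefficient of variation of 17%.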
